A study of Homo sapiens with 12 samples.

Results

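The genes examined here were 43 genes of mitosis and the G2/M transition, a list of members chosen by symbol: cyclins and CDK1 with its regulators, mitotic kinases, the spindle assembly checkpoint, kinetochore and spindle proteins, and proteins of cytokinesis. Each symbol matched exactly 1 of the 27249 genes with an Ensembl identifier in the tables. RNA was sequenced from Huh7 and HepG2, a pair of established human cell lines that the labels describe as hepatocellular carcinoma cells of wild-type genotype, with 3 samples in each of 4 groups. The resistant cells of each line had survived sorafenib, a multikinase inhibitor, given first at 10 μmol and then at rising concentrations over 8 months, with the medium replaced after each exposure. The parental cells of each line, labelled sorafenib sensitive, were given no drug. The sources do not say whether the 3 samples of a group came from separate cultures, whether a resistant line was derived once or several times, or whether drug was present at harvest, so the p-values measure only the spread between these samples. The comparison asked how the expression of the mitotic programme differed between resistant and parental cells of each line.

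Cells enter mitosis when CDK1, bound to cyclin B, is freed from the inhibitory phosphates that WEE1 adds and CDC25 phosphatases remove. The spindle assembly checkpoint then holds the cell until every kinetochore is attached, after which CDC20 and UBE2C direct the anaphase-promoting complex (APC/C) to destroy cyclin B and securin, and separase cleaves cohesin. Most of these genes are transcribed late in the cell cycle under MuvB-containing complexes, B-MYB and FOXM1, which act through the CHR element in their promoters. Many of these promoters also hold CCAAT boxes, which a separate factor, NF-Y, binds. RNA of these genes is therefore a common measure of proliferation. In a whole culture, fewer cells in G2/M and less RNA per cell cannot be told apart.

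Promoter sequence was a feature that the choice of members did not use. The set of RefSeq promoters (GRCh38.p14) used here gave a start site for 34 of the 43 members. That set held no entry for AURKA, BIRC5, BUB3, FOXM1, PBK, TPX2, TTK, UBE2C and WEE1. In the 250 bases before the start, the CHR letters TTTGAA or TTCGAA, on either strand, occurred in 18 of 34 members, or 52.9%, against 14.6% of 27305 promoters of the same length. The letters CCAAT, on either strand, occurred in 26 of 34 members, or 76.5%, against 33.0% of those promoters. CHR and CCAAT letters occurred together in 16 of 34 members, or 47.1%, against 5.24%. Among 20 matched genes of G1/S and replication, a list of cell cycle genes transcribed earlier, 2 had the CHR letters and 12 had CCAAT. The windows of 5 members are shown, because these members moved in different directions below and their windows ended before the gene's first base in the tables. Each sequence is written in the direction of transcription, and capitals mark the CHR and CCAAT letters on either strand (in MKI67, 1 pair of them overlaps).
CDC25A, chr3:48188418-48188667, minus strand: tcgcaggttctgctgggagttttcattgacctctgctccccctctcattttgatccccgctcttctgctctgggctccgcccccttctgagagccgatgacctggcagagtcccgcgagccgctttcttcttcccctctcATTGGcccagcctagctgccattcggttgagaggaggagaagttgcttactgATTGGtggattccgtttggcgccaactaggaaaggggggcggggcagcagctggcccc
ESPL1, chr12:53268049-53268298, plus strand: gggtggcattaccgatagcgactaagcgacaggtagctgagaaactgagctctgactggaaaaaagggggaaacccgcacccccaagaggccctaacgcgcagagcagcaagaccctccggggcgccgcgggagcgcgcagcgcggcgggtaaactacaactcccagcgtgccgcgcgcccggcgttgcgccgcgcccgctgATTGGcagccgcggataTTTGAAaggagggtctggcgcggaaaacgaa
KIF11, chr10:92592880-92593129, plus strand: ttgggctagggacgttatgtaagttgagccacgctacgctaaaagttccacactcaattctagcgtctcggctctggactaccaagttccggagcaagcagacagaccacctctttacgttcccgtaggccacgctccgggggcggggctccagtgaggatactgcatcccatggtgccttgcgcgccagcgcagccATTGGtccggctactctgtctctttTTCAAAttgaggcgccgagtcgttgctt
CENPF, chr1:214602945-214603194, plus strand: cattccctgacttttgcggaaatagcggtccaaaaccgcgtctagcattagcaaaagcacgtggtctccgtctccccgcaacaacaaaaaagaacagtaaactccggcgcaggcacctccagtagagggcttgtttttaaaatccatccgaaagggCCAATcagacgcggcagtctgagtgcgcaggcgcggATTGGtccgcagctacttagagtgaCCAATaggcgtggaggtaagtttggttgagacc
MKI67, chr10:128126424-128126673, minus strand: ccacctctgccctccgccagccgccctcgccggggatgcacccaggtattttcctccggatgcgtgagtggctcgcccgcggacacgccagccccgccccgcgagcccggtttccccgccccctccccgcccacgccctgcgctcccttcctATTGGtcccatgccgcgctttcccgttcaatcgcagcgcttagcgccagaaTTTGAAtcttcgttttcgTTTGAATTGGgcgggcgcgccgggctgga
CDC25A rose in resistant Huh7, with a pair of CCAAT boxes and no CHR letters in its window. CENPF fell in resistant Huh7, with 3 CCAAT boxes and no CHR letters. KIF11 and MKI67, with CHR and CCAAT letters, moved in opposite directions in the 2 cell lines, and ESPL1, with 1 of each, rose in Huh7. Presence of these letters is a description of the window and not of binding.

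Gene levels are given in FPKM, fragments scaled by exon length and sequencing depth, as deposited. Reads calculated back from the values of single-exon genes numbered 12290139 to 19285965 per sample. Of those values, up to 2000 reads, 99.7% to 99.9% came out as whole reads to within 0.05. The 8 liver cell markers all reached 1 FPKM in every group, and albumin stood at 571 to 2137 FPKM. AFP was lower in resistant cells, at 2115 to 2415 against 4623 to 6306 FPKM in Huh7 and 329 to 423 against 1081 to 1688 in HepG2. Albumin was lower as well, at 571 to 794 against 867 to 1114 in Huh7 and 744 to 951 against 1132 to 2137 in HepG2. In Huh7 APOB was also lower, while HNF4A (72.7 to 85.5 against 40.5 to 54.1) and APOA1 (142 to 203 against 64.8 to 134) were higher. TTR, SERPINA1 and FGB overlapped there. In HepG2 FGB was lower and the remaining markers overlapped. Summed fibroblast, immune and endothelial markers each came to at most 8.84 FPKM in any sample.

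In Huh7, on the values as deposited, resistant cells held more RNA of some mitotic regulators and less of many kinetochore, spindle and cytokinesis genes. A member was said to have risen or fallen where limma gave a Benjamini-Hochberg adjusted p under 0.05, and it passed both thresholds where the log2 fold change, on the log2(FPKM + 1) scale, was also beyond 1 in size. Of 42 members tested, 16 rose (38.1%) and 19 fell (45.2%), near the 32.7% and 37.4% of all 12554 genes tested. Past both thresholds, 5 rose (PLK1, AURKB, CDC25A, UBE2C and FOXM1) and 12 fell (CENPE, CENPF, HMMR, NUF2, TTK, PBK, ECT2, KIF11, ANLN, DLGAP5, TOP2A and NDC80), against 8.59% higher and 14.0% lower among all genes. Resistant and parental values did not overlap in 37 of 42 members, or 88.1%, against 74.5% of all genes. The median change was -0.14 over the members and -0.04 over all genes. The direction of change went with the GC content of the transcript, as described below. With the trend on GC content removed, 1 member was higher and 0 were lower past both thresholds, against 5.6% and 6.27% of all genes. The count of falls past both thresholds rested on Huh7 parental replicate 3, which was the highest parental sample for all 12 of these genes: without it 4 remained past both thresholds (NUF2, PBK, HMMR and KIF11), while 17 of the members still fell at adjusted p under 0.05.

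In HepG2, fewer members changed, and CCNB1 was the only member past both thresholds. Of 42 members tested, 4 rose (CCNB1, MKI67, KIF11 and FOXM1) and 0 fell at adjusted p under 0.05 with limma, against 11.6% higher and 8.43% lower among all 11762 genes tested. Past both thresholds 1 rose and 0 fell, against 3.29% and 2.98% of all genes. Groups did not overlap in 15 of 42 members, or 35.7%, against 40.4% of all genes. The median change was 0.14 over the members and 0.12 over all genes. Without HepG2 resistant replicate 3, or without HepG2 parental replicate 1, 2 members rose at adjusted p under 0.05 (with limma). The call of FOXM1 was lost in 7 of 16 alternatives: no filter on low values, upper-quartile scaling, median-ratio scaling, and leaving out resistant replicate 2 or 3 or parental replicate 1 or 3 (adjusted p up to 0.131, limma). The call of KIF11 was lost in 5: no filter, and leaving out resistant replicate 1 or 3 or parental replicate 1 or 2 (up to 0.0783). Those of CCNB1 and MKI67 held in all 16. With a replicate block, which fits same-numbered samples together, 10 members rose and 1 fell (limma). ANLN, BUB1, CENPF, KIF23, TOP2A and TPX2 were gained as higher and NDC80 as lower. The share of all genes is not given for that fit. The count of calls in HepG2 therefore depends on whether same-numbered samples are paired. With the trend on GC content removed, as described below for Huh7, 9 members were higher and 2 lower, against 15.8% and 17.6% of all genes. The members gained were BUB1, CENPF, ECT2, KIF23 and TPX2, higher, and MAD2L1 and NDC80, lower. PRC1, a microtubule bundler of the central spindle, was the member not tested in either line: it was listed at 0.0792 to 0.381 FPKM in all samples, under the filter of 1 FPKM. A NONCODE transcript on the opposite strand across PRC1 stood at 0.8 to 2.1 FPKM, and how reads over overlapping genes were counted is not given in the sources used here.

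**Figure D1:**
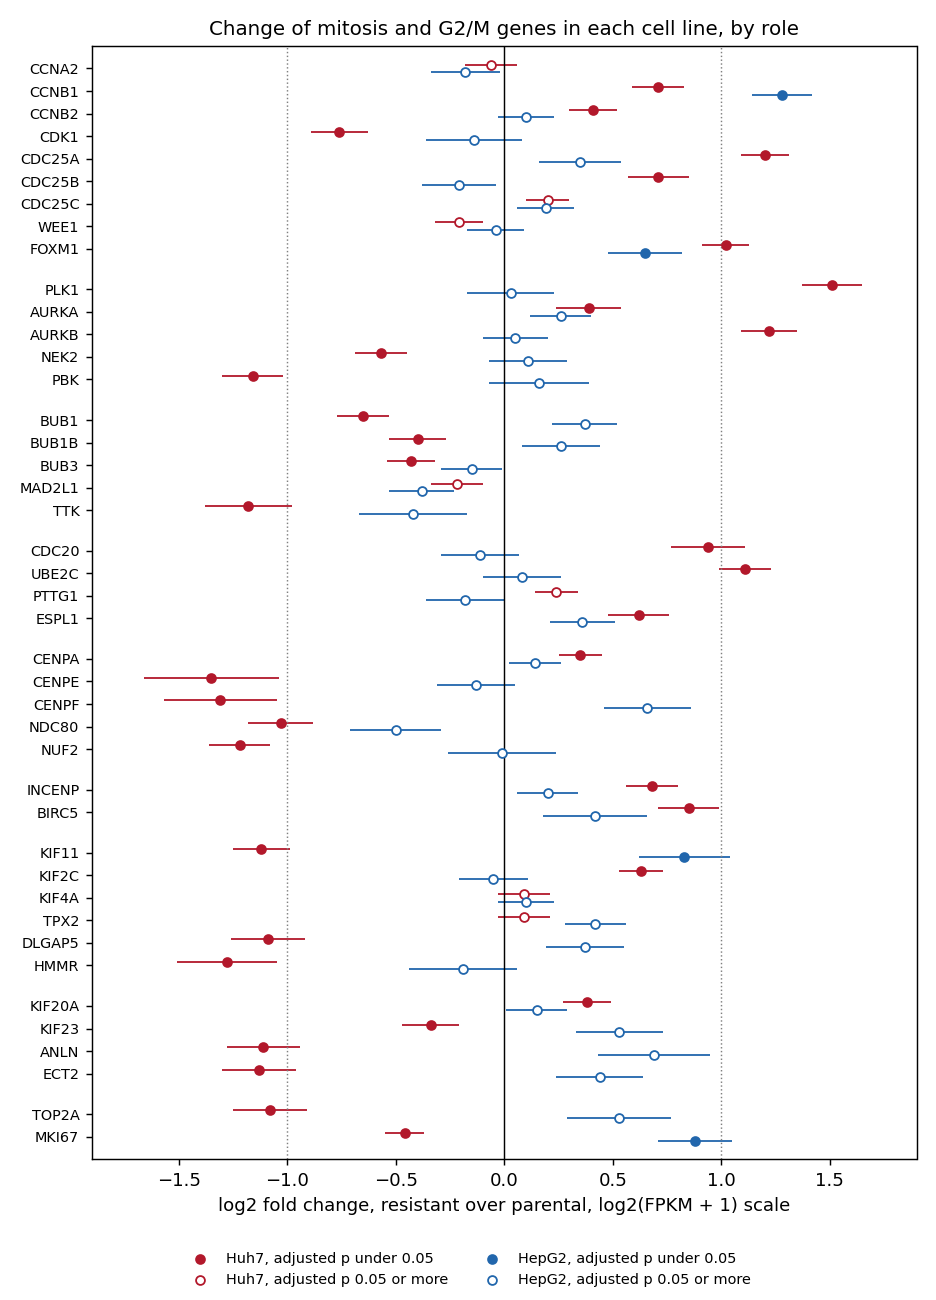
Log2 fold change of resistant over parental cells (x axis, log2(FPKM + 1) scale) for the 42 members tested (y axis, grouped by role), in Huh7 (red) and HepG2 (blue). Points are limma estimates, bars are standard errors, filled points have an adjusted p under 0.05 and dotted lines mark a change of 1. Filled red points lie on both sides of 0 and the 4 filled blue points lie above it.

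Among the genes of mitotic entry, cyclin B1 (CCNB1, chr5:69167010-69178245), the activating partner of CDK1, rose in both lines. Its values were 153, 160 and 157 FPKM in resistant Huh7 and 102, 103 and 82.4 in parental Huh7, a log2 fold change of 0.71 (SE 0.12, adjusted p = 0.000908, limma). In HepG2 they were 107, 122 and 124 in resistant and 42.6, 52.0 and 48.9 in parental cells, a change of 1.28 (SE 0.14, adjusted p = 0.00105). Resistant values lay above every parental value of the same line. FOXM1, the forkhead factor that drives G2/M transcription, also passed the test in both lines as deposited, with the HepG2 call lost in the alternatives named above. It stood at 42.0, 35.8 and 38.0 FPKM in resistant and 20, 19.3 and 16.5 in parental Huh7 (change 1.02, SE 0.11, adjusted p = 0.00013), and at 15.2, 18.5 and 17.7 in resistant and 8.64, 13.2 and 10.2 in parental HepG2 (change 0.65, SE 0.17, adjusted p = 0.0342).

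CDC25A, a phosphatase that activates cyclin-dependent kinases, rose in Huh7, from 20.9, 17.1 and 16.8 FPKM in parental to 42.7, 44.4 and 42.1 in resistant cells (change 1.20, SE 0.11, adjusted p = 6.34e-05, limma). Its HepG2 groups overlapped, at 11.1, 13.6 and 13.4 in resistant and 7.18, 10.8 and 11.8 in parental cells (change 0.35, adjusted p = 0.228). CDC25B rose in Huh7 by 0.71 (0.16 with the GC trend removed, adjusted p = 0.122, limma) and CCNB2 by 0.41. CDK1 fell there by 0.76, and stood at 0.10 with the GC trend removed (adjusted p = 0.17, limma). CDC25C was higher in resistant cells without overlap in both lines but did not pass (Huh7 0.20, adjusted p = 0.0991, and HepG2 0.19, adjusted p = 0.314, limma). Cyclin A2 (CCNA2), which acts in S phase and early mitosis, was among the members with the smallest change in Huh7. It stood at 60.9, 78.4 and 71.6 FPKM in resistant and 71.8, 73.3 and 74.2 in parental cells (change -0.06, SE 0.12, adjusted p = 0.654). With the GC trend removed, CCNA2 was higher in resistant Huh7 (0.38, adjusted p = 0.00245, limma). WEE1, the kinase that restrains CDK1, showed 1 of the smallest changes in HepG2, at 4.60, 4.45 and 4.89 in resistant and 4.98, 4.43 and 5.03 in parental cells (change -0.04, SE 0.13, adjusted p = 0.849). In Huh7 the change of WEE1 was -0.21 (adjusted p = 0.109), and 0.59 with the GC trend removed (adjusted p = 0.00426, limma). Of the 9 genes of mitotic entry, 5 rose and 1 fell in Huh7 (32.7% and 37.4% of all genes), and 2 rose in HepG2 (11.6% of all genes). With the GC trend removed, 6 were higher and 0 lower in Huh7 (32.5% and 31.9% of all genes).

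The mitotic kinases split in Huh7, where 3 rose and 2 fell (32.7% and 37.4% of all genes), and none of the 5 passed the test in HepG2. With the GC trend removed, 3 were higher and 1 lower in Huh7 (32.5% and 31.9% of all genes). PLK1 (chr16:23677656-23690367), which drives entry, spindle assembly and cytokinesis, rose in Huh7 from 14.3, 11 and 11 FPKM in parental to 40.3, 32.0 and 36.3 in resistant cells (change 1.51, SE 0.14, adjusted p = 5.39e-05, limma), the greatest rise among the members in that line. In HepG2 it stood at 38.7, 58.5 and 49.2 in resistant and 41.2, 57.9 and 44.0 in parental cells (change 0.03, SE 0.20, adjusted p = 0.932). AURKB, the kinase of the chromosomal passenger complex, stood at 105, 82.9 and 90.9 FPKM in resistant and 42.8, 40 and 35.3 in parental Huh7 (change 1.22, SE 0.13, adjusted p = 9.7e-05). In HepG2 its groups overlapped, at 24.5, 29.9 and 27.3 and at 24.0, 30.8 and 24.1 (change 0.05, adjusted p = 0.829). PBK, a kinase active in mitotic cells, moved the other way in Huh7, from 31.8, 40.8 and 43.2 in parental to 15.6, 18.8 and 15.4 in resistant cells (change -1.16, SE 0.14, adjusted p = 0.000181). NEK2, a kinase of centrosome separation, fell in Huh7 by 0.57, and stood at -0.10 with the GC trend removed (adjusted p = 0.287, limma). AURKA, the centrosomal Aurora kinase, was low at 2.19 to 4.46 FPKM and rose in Huh7 by 0.39 with overlapping groups (adjusted p = 0.0476), a call lost in 7 of 16 alternatives. A NONCODE transcript on the same strand within AURKA stood at 5.25 to 13.0 FPKM, and reads may have been divided between them.

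**Figure D2:**
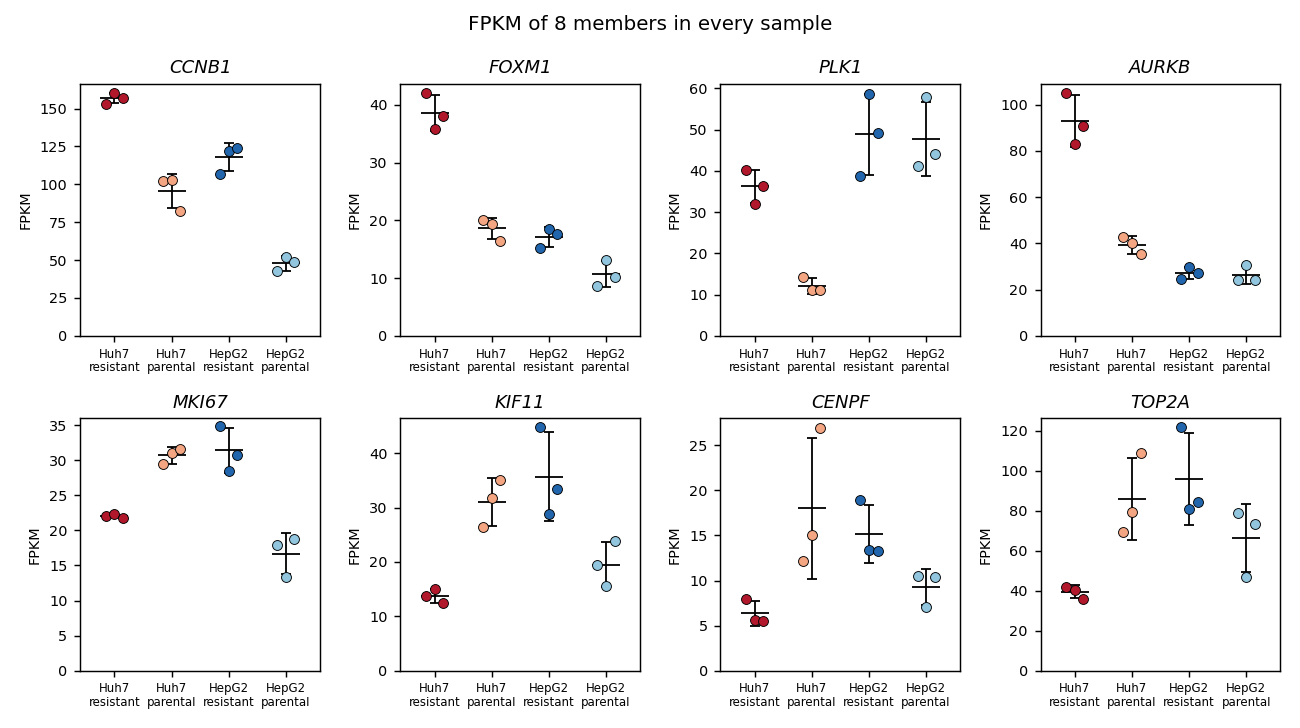
FPKM (y axis, from 0) of 8 members in every sample of the 4 groups (x axis). Points are samples, horizontal bars the group mean and error bars the SD of 3 samples. CCNB1 and FOXM1 were higher in resistant cells of both lines, PLK1 and AURKB in Huh7, while MKI67 and KIF11 were lower in resistant Huh7 and higher in resistant HepG2.

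Of the 5 spindle assembly checkpoint genes, 4 fell in Huh7, where 37.4% of all genes fell, and none of them passed the test in HepG2 as deposited. TTK, the kinase that starts checkpoint signalling, stood at 9.47, 8.82 and 8.32 FPKM in resistant and 16.3, 19.7 and 30.2 in parental Huh7 (change -1.18, SE 0.20, adjusted p = 0.00088, limma). Its highest parental value came from replicate 3. BUB1, BUB1B and BUB3, which build the checkpoint complex at unattached kinetochores, fell by 0.65, 0.40 and 0.43. MAD2L1, which inhibits CDC20, stood at 9.51 to 11.2 in resistant and 10.7 to 13.3 in parental Huh7 and did not pass (change -0.22, adjusted p = 0.132). With the GC trend removed, MAD2L1 was higher in Huh7 (0.48), and BUB1 (-0.24) and TTK (-0.61) were the checkpoint genes still lower there. In HepG2 BUB1 was then higher (0.28, adjusted p = 0.0467) and MAD2L1 lower (-0.50, adjusted p = 0.00383, limma).

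Of the 4 genes that act at anaphase, 3 rose and 0 fell in Huh7, where 32.7% of all genes rose, and none passed the test in HepG2. After removal of the GC trend, 2 of the 4 remained higher in Huh7. UBE2C, the ubiquitin-conjugating enzyme of the APC/C, stood at 32.0, 28.3 and 28.0 FPKM in resistant and 15, 12.5 and 12 in parental Huh7 (change 1.11, SE 0.12, adjusted p = 0.000101, limma). CDC20, its activator, rose from a mean of 41.3 (SD 8.01, n = 3) to 79.8 (SD 12.3, n = 3), a change of 0.94. ESPL1, which encodes separase, rose by 0.62, and stood at 0.09 with the GC trend removed (adjusted p = 0.275, limma). Securin (PTTG1) stood at 94.6 to 99.9 in resistant and 79.2 to 83.8 in parental Huh7 without passing (adjusted p = 0.0546). In HepG2, CDC20 was 41.3 to 58.2 in resistant and 45.7 to 62.2 in parental cells, so that its groups overlapped.

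Of the 5 centromere and outer kinetochore genes, 4 fell past both thresholds in Huh7 and CENPA, the centromeric histone, rose by 0.35. Of all genes, 14.0% fell past both thresholds, and 26.5% of those under 45% GC, where all 4 lie. With the GC trend removed, 0 of the 5 were past both thresholds, and 3 were lower at adjusted p under 0.05 (limma). CENPE, a kinetochore motor, stood at 3.17, 1.92 and 2.06 FPKM in resistant and 4.88, 6.25 and 13.3 in parental cells (change -1.35, SE 0.31, adjusted p = 0.00427, limma). CENPF (chr1:214603195-214664588), a kinetochore protein that accumulates in G2, stood at 7.94, 5.58 and 5.53 in resistant and 12.2, 15 and 26.9 in parental cells (change -1.31, SE 0.26, adjusted p = 0.0022). Parental replicate 3 was 2.13-fold above the next highest parental sample for CENPE and 1.8-fold for CENPF. Without that sample their changes were -0.97 and -1 to 2 decimals, and of the 4 genes NUF2 remained past both thresholds. NUF2 and NDC80 are partners in the complex that binds microtubules. NUF2 stood at 2.79, 2.76 and 2.94 in resistant and 6.37, 7.93 and 9.70 in parental Huh7 (change -1.22, SE 0.14, adjusted p = 0.000159). NDC80 stood at 10.4, 12.8 and 11.3 in resistant and 20.6, 23.6 and 30.2 in parental Huh7 (change -1.03, SE 0.15, adjusted p = 0.00042).

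In HepG2 none of these kinetochore genes passed the test as deposited. Once the GC trend was removed, CENPF was higher (0.55, adjusted p = 0.0125) and NDC80 lower (-0.62, adjusted p = 0.00658, limma). NUF2 showed the smallest change of all members there, at 8.92, 5.30 and 6.64 FPKM in resistant and 9.27, 4.74 and 7.22 in parental cells (change -0.01, SE 0.25, adjusted p = 0.987). CENPF stood at 18.9, 13.4 and 13.3 in resistant and 10.5, 7.02 and 10.4 in parental HepG2, without overlap, but missed the threshold (change 0.66, SE 0.20, adjusted p = 0.0523). The scaffold genes of the chromosomal passenger complex, INCENP and BIRC5 (survivin), rose in Huh7 by 0.68 and 0.85 together with AURKB, their kinase, and did not pass in HepG2. INCENP stood at 0.14 in Huh7 with the GC trend removed and no longer passed (adjusted p = 0.102, limma).

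Among the 6 spindle motors and assembly factors, 1 rose and 3 fell in Huh7 (32.7% and 37.4% of all genes), and 1 rose in HepG2 (11.6% of all genes). KIF11 (chr10:92593286-92655395), the motor that pushes spindle poles apart, fell in Huh7 and rose in HepG2 as deposited, with the HepG2 call lost in the alternatives named above. It stood at 13.7, 15 and 12.5 FPKM in resistant and 26.4, 31.8 and 35.1 in parental Huh7 (change -1.12, SE 0.13, adjusted p = 0.000147, limma), and at 44.8, 28.9 and 33.5 in resistant and 19.4, 15.5 and 23.8 in parental HepG2 (change 0.83, SE 0.21, adjusted p = 0.0271). No resistant value overlapped a parental value in either line. DLGAP5, which stabilises kinetochore fibres, stood at 6.12, 6.29 and 6.14 in resistant and 11.6, 13.0 and 19.1 in parental Huh7 (change -1.09, SE 0.17, adjusted p = 0.000577). HMMR, a microtubule-associated protein of the spindle, stood at 6.03, 6.84 and 5.02 in resistant and 10.9, 15.9 and 22.3 in parental Huh7 (change -1.28, SE 0.23, adjusted p = 0.00117). KIF2C, a microtubule depolymerase, rose in Huh7 by 0.63. KIF4A, a chromosome-bound motor, had overlapping groups at 17.7, 19.9 and 20.7 in resistant and 20.1, 16.2 and 18.5 in parental Huh7 (change 0.09, SE 0.12, adjusted p = 0.524). TPX2, which activates AURKA and had the highest mean level of the members in all 4 groups (level with CCNB1 within its spread in resistant Huh7), stood at 150, 159 and 164 in resistant and 163, 153 and 131 in parental Huh7 (change 0.09, SE 0.12, adjusted p = 0.529).

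Of the central spindle and cytokinesis genes, 1 rose and 3 fell in Huh7 (32.7% and 37.4% of all genes), and 0 of the 4 tested passed in HepG2. ANLN, the scaffold of the contractile ring, stood at 24.5, 25.6 and 23.3 FPKM in resistant and 44.0, 50.3 and 70.5 in parental Huh7 (change -1.11, SE 0.17, adjusted p = 0.000484, limma). ECT2, which activates RhoA at the division plane, stood at 23.2, 22.8 and 19.3 in resistant and 39.6, 47.2 and 62 in parental Huh7 (change -1.13, SE 0.17, adjusted p = 0.000431). KIF23, a motor of the centralspindlin complex, fell by 0.34, a call lost in 9 of 16 alternatives, and KIF20A, a motor of the midzone, rose by 0.38. In HepG2, ANLN stood at 26.8, 17.8 and 20 in resistant and 18.1, 8.66 and 13.1 in parental cells (change 0.69, SE 0.26, adjusted p = 0.0925). With the replicate block, ANLN and KIF23 were called higher in HepG2.

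TOP2A and MKI67, the standard proliferation markers of the list, fell in Huh7. TOP2A, the enzyme that untangles sister chromatids, stood at 42.1, 40.4 and 35.9 FPKM in resistant and 69.4, 79.2 and 109 in parental Huh7 (change -1.08, SE 0.17, adjusted p = 0.000582, limma). MKI67 (chr10:128096659-128126385), which encodes the antigen Ki-67, stood at 22.1, 22.3 and 21.8 in resistant and 29.4, 31.1 and 31.6 in parental Huh7 (change -0.46, SE 0.09, adjusted p = 0.00224). In HepG2 MKI67 rose, at 34.9, 28.5 and 30.7 in resistant and 17.9, 13.4 and 18.8 in parental cells (change 0.88, SE 0.17, adjusted p = 0.00949). TOP2A in HepG2 stood at 122, 80.8 and 84.5 in resistant and 78.8, 46.8 and 73.3 in parental cells and did not pass (change 0.53, adjusted p = 0.145). With the replicate block it was called higher there.

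The change of 24 of 42 members, or 57.1%, differed between the lines by the interaction term of a fit on all 12 samples (adjusted p under 0.05, limma), against 56.3% of the 10688 genes tested in both lines. The change was more negative in Huh7 for 16 of them and more positive for 8. CENPF differed most (Huh7 minus HepG2 -1.97, SE 0.36, adjusted p = 0.000761), followed by KIF11 (-1.95, SE 0.26, adjusted p = 9.34e-05) and ANLN (-1.8, SE 0.33, adjusted p = 0.000791). PLK1 differed most in the other direction (1.48, SE 0.25, adjusted p = 0.000406). KIF11 and MKI67 passed the test with opposite signs in the 2 lines, and CCNB1 and FOXM1 passed it with the same sign, on the values as deposited. For CCNB1 the rise was larger in HepG2 (difference -0.57, SE 0.17, adjusted p = 0.0134). For FOXM1 no difference was detected (0.37, SE 0.21, adjusted p = 0.146).

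GC content of the transcript moved with the changes in Huh7. The 16 members that rose had a GC content of 43.2% to 59.6% (median 52.0%) and the 19 that fell 35.3% to 48.3% (median 40.1%), taken from the longest GENCODE transcript of each gene. The 5 members that rose past both thresholds had 50% to 57.1%, and the 12 that fell past both had 35.3% to 40.8%. Across the 42 members, Pearson's r between GC content and change was 0.86 and Spearman's rho 0.86 in Huh7, and 0.02 and 0.07 in HepG2. Across all 12545 Huh7 genes with a GC value, which share the same 6 libraries, r was 0.57 and rho 0.62. Genes are not independent replicates, so these values are descriptions.

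All Huh7 genes showed the same order: the median change was -0.83 under 40% GC and 0.52 at 55% or more. Under 45% GC, 0 of 23 members rose and 12 fell past both thresholds, against 1.53% and 26.5% of all genes in that range. At 45% or more, 5 of 19 members rose and 0 fell, against 14.0% and 4.51%. This split at 45% was chosen after the values were seen. After each library's trend on GC content was removed, 1 member, CCNB1, was higher past both thresholds in Huh7 (1.06) and 0 were lower, against 5.6% and 6.27% of all genes. At adjusted p under 0.05, 16 members were then higher, 13 of them among the 16 above, and 11 were lower, all among the 19 above, against 32.5% and 31.9% of all genes. The rises no longer called were those of CDC25B, ESPL1 and INCENP, and those gained were CCNA2, MAD2L1 and WEE1. CDK1, BUB3 and KIF23, lower as deposited, stood at 0.10, 0.09 and 0.08 and did not pass. PLK1 (0.98), CDC25A (0.86), UBE2C (0.87) and AURKB (0.72) stayed higher, and CENPF (-0.75), PBK (-0.55), MKI67 (-0.57) and KIF11 (-0.35) stayed lower in Huh7. CENPE, HMMR and DLGAP5, at -0.40, -0.40 and -0.32, no longer passed, nor did NEK2 and BUB1B, at -0.10 and -0.06. Removal of the trend takes out the change that goes with GC content over all genes, whatever its source, and which share is technical was not tested. Among the 42 members, GC content and change still went together after removal in Huh7, with r 0.53 and rho 0.56. Over all 12545 genes both were then 0.01. The changes that remained among the members are therefore not free of the relation to GC content.

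**Figure D3:**
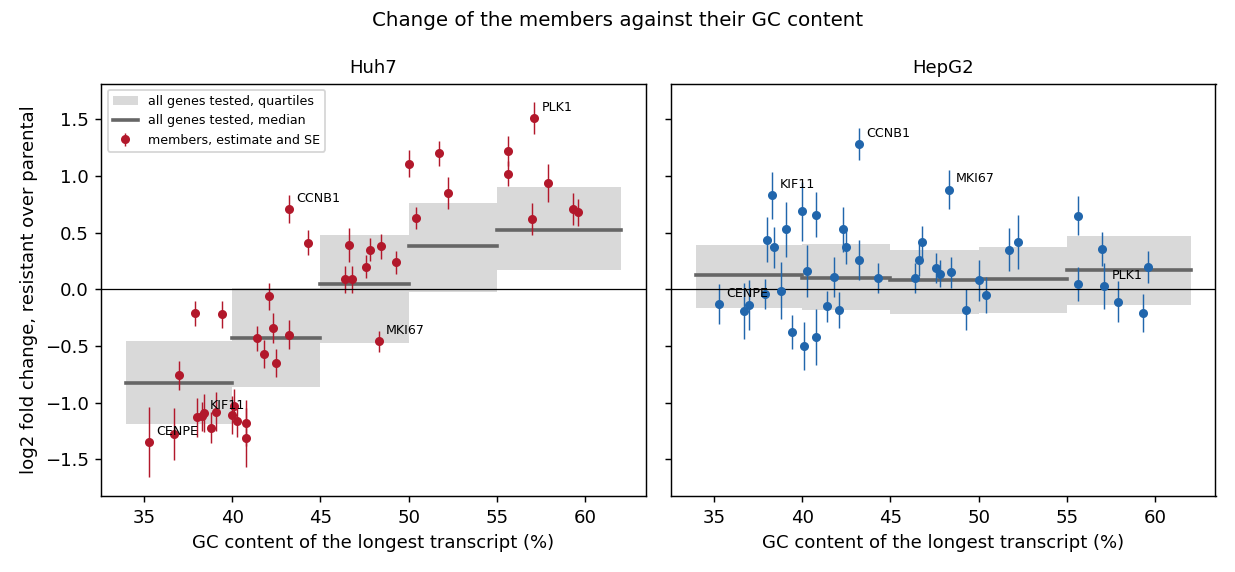
Log2 fold change of resistant over parental cells (y axis) against transcript GC content in % (x axis) for the 42 members (points, with standard errors), in Huh7 (left) and HepG2 (right). Grey bands are the quartiles and dark lines the median of all genes tested in each GC range (the outer ranges are open-ended and drawn to the plotted limits). In Huh7 members and all genes rise with GC content, and in HepG2 neither does.

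With the trend removed, the change of 21 of 42 members differed between the lines, against 58.4% of all genes, 12 more positive and 9 more negative in Huh7. MKI67 (-1.43), CENPF (-1.32), KIF11 (-1.09), ANLN (-1.07) and PLK1 (1.05) were among them. CCNB1 was not (-0.17, adjusted p = 0.46, limma), with a rise of 1.06 in Huh7 and 1.20 in HepG2. MKI67, at 48.3% GC, was lower in Huh7 and higher in HepG2 with and without the removal. KIF11 kept opposite signs as well, at -0.35 (adjusted p = 0.00218) in Huh7 and 0.73 (adjusted p = 0.00262) in HepG2.

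**Figure D4:**
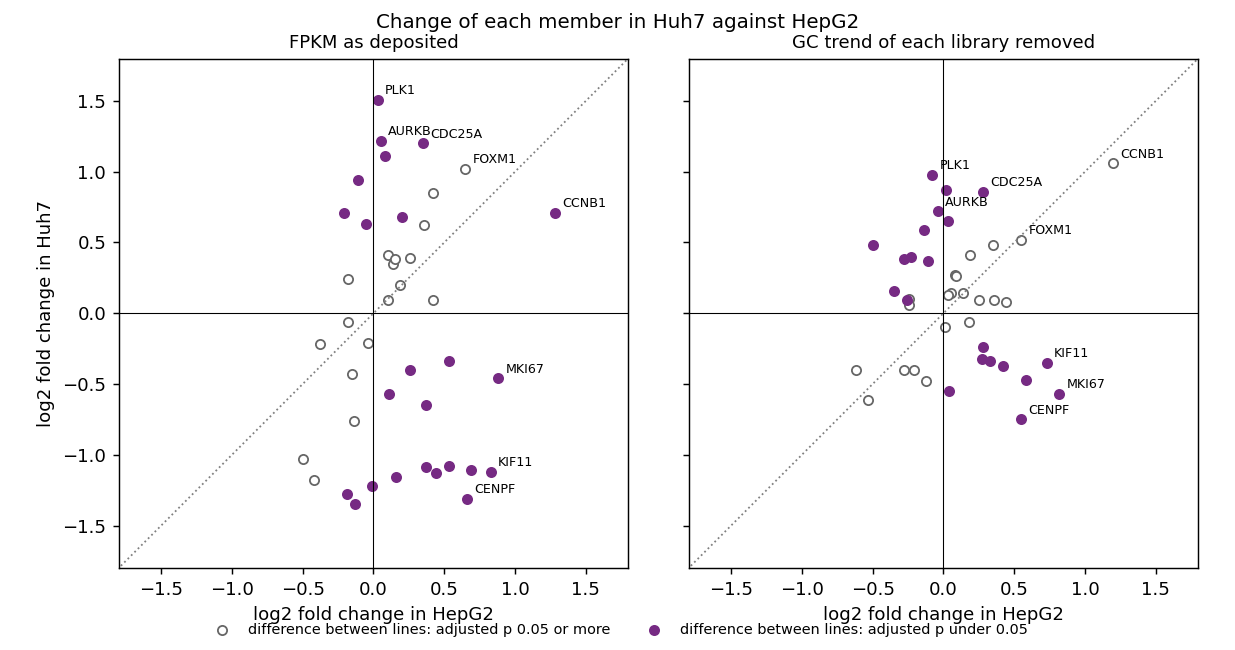
Log2 fold change of each of the 42 members in Huh7 (y axis) against HepG2 (x axis), on FPKM as deposited (left) and after removal of each library's GC trend (right). Filled points differ between the lines at adjusted p under 0.05 (24 on the left, 21 on the right) and the dotted line marks equal change. MKI67, KIF11 and CENPF lie below and PLK1 above that line in both panels.

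The parental lines differed in the level of 6 members past both thresholds. In Huh7, 5 members were higher than in HepG2 and 1 was lower, against 13.2% and 11.1% of all 10688 genes. ANLN was 55 (SD 13.8, n = 3) against 13.3 FPKM (SD 4.71, n = 3), a difference of 2.00 (SE 0.24, adjusted p = 1.37e-05, limma). KIF23 differed by 1.59, ECT2 by 1.28, TTK by 1.18 and DLGAP5 by 1.12. PLK1 was lower in parental Huh7, at 12.1 (SD 1.92, n = 3) against 47.7 FPKM (SD 8.93, n = 3), a difference of -1.89 (SE 0.18, adjusted p = 1.77e-06). PLK1 in resistant Huh7, at 36.2 (SD 4.10, n = 3), lay between these levels. Line and library batch cannot be told apart in this comparison.

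The summed level of the 43 members was 1411, 1397 and 1398 FPKM in resistant and 1288, 1305 and 1372 in parental Huh7, and 1285, 1241 and 1247 in resistant and 1097, 1034 and 1051 in parental HepG2. In both lines the resistant sums lay above the parental sums. As a share of the FPKM of all Ensembl genes, the order turned in Huh7, at 0.601% to 0.636% in resistant and 0.663% to 0.752% in parental cells, and stayed in HepG2, at 0.592% to 0.661% and 0.492% to 0.553%. Scaling to that sum moved the median change of all Huh7 genes from -0.04 to -0.26, and left 1 member, PLK1, higher past both thresholds (1.25), with 13 lower. At adjusted p under 0.05, 12 members were higher and 22 lower in Huh7 on that scale. The direction of the summed level in Huh7 therefore depends on the scale.

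Other genes of the pathway came from lists chosen with results of these data known. Of all genes tested in Huh7, 32.7% rose and 37.4% fell. On the values as deposited, falls exceeded that share most clearly among cohesin genes. Of 12 cohesin genes, which hold sister chromatids together, 1 rose and 11 fell (median -1.03), with NIPBL, the cohesin loader, at -1.52 (SE 0.21, adjusted p = 0.000347, limma). Of 8 condensin genes, which compact chromosomes, 2 rose and 4 fell, with SMC2 at -1.73 and NCAPG at -1.5. Of 31 further kinetochore genes tested, 6 rose and 17 fell, with CENPC at -1.83 and KNL1 at -1.75. Of 21 further spindle and cytokinesis genes, 8 rose and 9 fell, with KIF18A at -1.73 and ASPM at -1.72. These named genes have a GC content of 37.0% to 39.5%. Of 17 APC/C genes, 4 rose and 5 fell, with UBE2S, which extends ubiquitin chains, at 1.74 (55.7% GC) and ANAPC4, a scaffold subunit, at -1.93 (36.6% GC). Of 13 genes of G2/M transcription tested, 4 rose and 5 fell, with MYBL2, which encodes B-MYB, at 1.02 and NFYA, a subunit of the factor that binds CCAAT, at -1.15. With the GC trend removed, 5 cohesin, 4 condensin, 15 kinetochore and 8 spindle genes fell, against 1, 1, 6 and 8 that rose. Of all genes, 31.9% then fell and 32.5% rose. The cohesin genes then no longer stood apart from the condensin and kinetochore genes. The balance then turned for APC/C genes, with 9 rises and 6 falls, and for G2/M transcription, with 7 and 4.

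The G1/S and replication genes rose in both lines, 20 of 25 in each, with 1 fall in Huh7 and 0 in HepG2. Of all genes, 32.7% rose in Huh7 and 11.6% in HepG2. Their median change was 0.67 in Huh7 and 0.91 in HepG2, beside -0.14 and 0.14 for the mitotic members. E2F2 rose most in Huh7, by 1.56 (1.03 with the GC trend removed). MCM5, a subunit of the replicative helicase, rose by 1.36 in Huh7 and 1.34 in HepG2, and PCNA, the sliding clamp, by 1.18 in HepG2. With the GC trend removed, 19 of 25 rose in Huh7 (median 0.47) and 20 of 25 in HepG2 (median 0.79), against 32.5% and 15.8% of all genes. In HepG2, where 11.6% of all genes rose and 8.43% fell, further mitotic lists held rises and few falls. There were 4 rises among 7 condensin genes, 8 among 30 kinetochore genes (OIP5 1.04) and 6 among 21 spindle genes (FAM83D 1.46), with 0 falls in each. Of 12 cohesin genes in HepG2 1 rose and 0 fell, of 16 APC/C genes 0 rose and 1 fell, and of 13 genes of G2/M transcription 2 rose and 1 fell.

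Of the cell cycle arrest genes, 2 rose and 2 fell among 7 tested in Huh7, and 2 rose and 4 fell among 8 tested in HepG2. Of all genes, 32.7% rose and 37.4% fell in Huh7, and 11.6% and 8.43% in HepG2. With the GC trend removed, 4 fell in Huh7, against 31.9% of all genes. SFN, a 14-3-3 protein that holds CDK1 complexes in the cytoplasm, rose in Huh7 from 1.14 (SD 0.649, n = 3) to 13.3 FPKM (SD 2.53, n = 3), a change of 2.77 (SE 0.22, adjusted p = 3.44e-05, limma). CCNG2, a cyclin linked to arrest, fell there by 1.16. In HepG2, GADD45A, a stress gene that inhibits CDK1, fell from 35.0 (SD 2.59, n = 3) to 13.6 FPKM (SD 0.93, n = 3), a change of -1.30 (adjusted p = 0.000792), and CDKN2C, an inhibitor of CDK4 and CDK6, rose by 1.26.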

How the data were processed

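Total RNA of 12 samples, 3 in each of 4 groups, was sequenced and deposited as 1 table of gene values per sample. Samples were grouped by their titles. The submitters' processing notes name bcl2fastq and GRCh38; the aligner and counter are not given in the sources used here, and the RNA kit in the labels is not the one in the methods. The unit is not stated. The deposited values behave as FPKM made by the authors. In single-exon genes, values multiplied by exon length from GENCODE 29 fell on whole multiples of 1 step per sample, which gave the reads per sample. The exon lengths of genes with several exons were not checked in this way. RPKM and FPKM cannot be told apart. Values were used as deposited, without rescaling. Whether reads were counted by strand is not stated, and the library kit named does not mark strand.

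Python 3.11.15 with pandas 2.3.3 was used to read the tables. Of 98711 listed genes, the 27249 with an Ensembl identifier were kept. Per line, genes reaching 1 FPKM in 3 or more of its 6 samples were tested on log2(FPKM + 1) with limma 3.58.1 in R 4.3.3, with empirical Bayes variances, a trend on mean expression and Benjamini-Hochberg adjustment over all genes tested. A fold change on this scale understates the change of low genes. Differences between the lines were tested as the interaction of line and resistance in all 12 samples. The fit was tested on simulated data. GC content was taken from the longest transcript in GENCODE 29, and its trend was removed from each library by lowess (span 0.3) on the difference from the line mean.

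The members, gene lists and tests were chosen with earlier results of these data known. All members were accounted for; those given in full passed both thresholds in a line, had the 3 greatest or 3 smallest changes there, or were among the 12 greatest differences between the lines. From other lists, up to 4 genes past both thresholds were named per line, by size. Same-numbered samples were not treated as pairs, since the correlation of their deviations was not over 0.1 for every pair in either line. In HepG2 it was 0.246, 0.437 and -0.011, and the unpaired fit leaves what such samples share in its error. No pair of replicates shared more than 0.0094% of its values. Alternatives were another pseudocount, no filter, other scalings, limma-voom on reads, no trend, a joint fit, a replicate block, the GC correction and leaving out each sample. Scaling to the summed FPKM and the split at 45% GC were added after the data were seen.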

Additional observations from a re-analysis of the deposited data

Results flagged for a closer look

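The resistance-associated change of 24 members differed between the 2 cell lines by the interaction term (limma, adjusted p under 0.05), or 57.1%, against 56.3% of all genes tested in both lines, and each value here is the Huh7 log2 fold change minus the HepG2 log2 fold change. Among kinetochore and checkpoint genes the difference was -1.97 for CENPF, -1.22 for CENPE, -1.21 for NUF2, -1.02 for BUB1 and -0.67 for BUB1B. Among spindle and cytokinesis genes it was -1.95 for KIF11, -1.46 for DLGAP5, -1.09 for HMMR, -1.8 for ANLN, -1.57 for ECT2 and -0.87 for KIF23. It was -1.61 for TOP2A, -1.34 for MKI67, -1.32 for PBK, -0.68 for NEK2 and -0.57 for CCNB1. In the other direction it was 1.48 for PLK1, 1.16 for AURKB, 1.05 for CDC20, 1.03 for UBE2C, 0.91 for CDC25B, 0.85 for CDC25A, 0.68 for KIF2C and 0.49 for INCENP. With the GC trend removed, 7 of the 8 positive and 9 of the 16 negative differences kept an adjusted p under 0.05; INCENP, BUB1B, CCNB1, CENPE, HMMR, KIF23, NEK2 and NUF2 lost it. With that removal 58.4% of all genes differed between the lines.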

How the results depend on the processing

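With the GC trend removed, Huh7 members past both thresholds numbered 1 higher and 0 lower (5 and 12 as reported), 11 fell at adjusted p under 0.05 (19 as reported), and in HepG2 9 rose and 2 fell (4 and 0 as reported). Scaling to the summed FPKM, added after the data were seen, left 1 Huh7 member higher past both thresholds. In HepG2, 10 rose and 1 fell with the replicate block (gained: ANLN, BUB1, CENPF, KIF23, TOP2A and TPX2, higher, and NDC80, lower), 8 rose and 1 fell with all 12 samples in one fit, and 2 rose with no filter on low values. The replicate block changed no other count by over 1.5 times. Same-numbered samples correlated at 0.246, 0.437 and -0.011 in HepG2 and 0.084, 0.062 and -0.228 in Huh7. Leaving out each replicate gave 4 to 12 falls past both thresholds in Huh7 and 2 to 4 rises in HepG2. In every other fit run, the counts per line stayed within 1.5 times of those reported, members differing between the lines numbered 21 to 29, and those differing between the parental lines 5 to 7. GC removal was not run for the parental comparison, since the trend is taken within each line.

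The summed level, resistant minus parental, was 80.4 FPKM in Huh7, against 140.0, 151 and 194 with upper-quartile scaling, median-ratio scaling and GC removal, and -179 with scaling to the summed FPKM. In HepG2 it was 197, against 139, 106 and 122 with the former 3. Of 86 single changes and differences under the alternatives, 1380 values kept direction and call, 33 changed sign, 68 lost and 15 gained the call. In Huh7 the sign changed with GC removal for CCNA2 (0.38), CDK1 (0.10), WEE1 (0.59), BUB3 (0.09) and KIF23 (0.08), with scaling to the summed FPKM for KIF4A (-0.17) and TPX2 (-0.18), and for CCNA2 with median-ratio scaling (0.01). In HepG2, upper-quartile scaling, median-ratio scaling and GC removal gave PLK1 -0.04, -0.08 and -0.08 and AURKB -0.02, -0.06 and -0.04, and median-ratio scaling gave UBE2C -0.03 and KIF4A -0.01. Leaving out each replicate changed the sign of CCNA2 (-0.14 to 0.04) and TPX2 (-0.000946 to 0.15) in Huh7, and in HepG2 of PLK1 (-0.11 to 0.18), AURKB (-0.01 to 0.17), PBK (-0.06 to 0.29), UBE2C (-0.08 to 0.17), NUF2 (-0.23 to 0.19) and HMMR (-0.42 to 0.01). No change that turned when a replicate was left out had passed the test in that line as reported.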
